A study of Mustela putorius furo and Mus musculus with 4 samples.

Results

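Prm1, the gene of protamine 1, was the 1 gene followed here out of 17170 genes measured by single-cell RNA-seq in the embryonic mouse cortex. It was chosen because earlier work on these data had found its transcripts in 1 of the 2 mouse libraries, so its levels by library and by cell class are given as a description and carry no test. The study asked how signalling by Sonic hedgehog (SHH) through its transducer Smoothened (Smo) acts on cortical neurogenesis and gliogenesis. The control library came from the cortex of E18 CD1 embryos labelled wild type, whose genotype the study gives as Smo F/F littermates, and the Smo-cKO library from hGFAP-Cre;Smo F/F embryos of the same age. CellTrace Yellow, a dye that labels cells dividing at the ventricle, was injected in both at E17, and labelled cells were sorted. Each genotype was 1 library, so no difference between genotypes has a replicate check, and the presence of Cre, the loss of Smo and the library itself cannot be told apart. hGFAP-Cre is driven by a human GFAP promoter that is active in radial glia, and the study describes it as reaching nearly all cortical radial glia.

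Protamine 1 is a small, arginine-rich protein that replaces histones in the nucleus of the maturing sperm cell, and its gene is normally transcribed in round spermatids of the testis. Intron and polyadenylation sequences of the mouse protamine 1 gene are also used in many transgenes as a ready-made 3′ end. Radial glia (RG) are the stem cells of the embryonic cortex, which give rise to intermediate progenitor cells (IPCs), pyramidal neurons (PyNs) and, later, glia. The sources used here do not describe the 3′ end of the hGFAP-Cre transgene, and the table has no row for Cre. Reads of the endogenous gene and of a transgene that carries its sequence can therefore not be told apart in these counts. The signal is called Prm1 below, after the row that counts it.

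The coding sequence is shown because it is what the row name stands for. In the GENCODE M21 annotation (GRCm38), transcript Prm1-201 lies on the minus strand at chr16:10796326-10796886, has exon 1 at chr16:10796626-10796886 and exon 2 at chr16:10796326-10796533, and is 469 bases long once spliced. The 156 bases of coding sequence span both exons and are followed by 158 bases of 3′ UTR. Capitals mark the arginine codons, 28 of 51 (54.9%), and a further 9 codons encode cysteine.
Prm1: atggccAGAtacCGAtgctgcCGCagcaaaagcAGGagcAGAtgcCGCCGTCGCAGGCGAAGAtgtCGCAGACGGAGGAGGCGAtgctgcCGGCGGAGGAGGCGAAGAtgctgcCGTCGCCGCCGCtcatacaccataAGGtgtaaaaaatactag

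Depth was sufficient to see the gene in either library. The deposited table held 10524 control and 7596 Smo-cKO barcodes, and 10498 and 7209 cells with 750 to 5000 genes and under 10% mitochondrial transcripts were kept. They held 51657121 and 42057782 UMIs, with medians of 4033.5 and 4836 UMIs per cell. 28 barcode sequences occurred in both libraries, and Prm1 was found in 0 of them in control and in 8 in Smo-cKO. Xist gave 12591 UMIs in control and 11 in Smo-cKO, so the embryos of the libraries differed in sex make-up, whose part in the Prm1 counts was not tested. Smo itself, the targeted gene, was found in 3.70% of control and 0.277% of Smo-cKO cells.

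Prm1 separated the libraries completely. No UMI of it was counted in any of the 10524 control barcodes, and 0 of 10498 kept cells allows a share of up to 0.0286%, where the limit for a count of 0 is taken as 3 counts over the number of cells here and below. In the Smo-cKO library 10859 UMIs were counted in 2333 of 7209 cells, a share of 32.4% (31.3 to 33.5, exact 95% binomial interval) and a level of 258 CPM (UMIs of the gene per 1000000 UMIs counted). Against a floor of 3 UMIs over the whole control library this was at least 4446-fold higher. Intervals here and below cover counting error only.

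No other gene at 0 in control came near this count. 578 genes had 0 UMIs in control and at least 1 in Smo-cKO, and 9 of them reached 50 UMIs. Among those after Prm1 were S100a9, a calcium-binding protein of neutrophils, with 355 UMIs, BC100530 with 220, Lilr4b with 120 and Gm5483 with 75. Of 11846 genes compared in RG-like cells with 10 CPM added, 1.4% were higher and 1.3% lower in Smo-cKO by at least 1.5-fold. Prm1 ranked 1st there at a log2 ratio of 5.96, and the next gene stood at 2.02. Within Smo-cKO RG-like cells Prm1 ranked 241st of all genes by CPM, so it was an abundant transcript there.

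The rest of the locus did not share a difference of this size. Of 19 other protein-coding genes within 500 kb of Prm1, 15 had a row, and their log2 ratios of Smo-cKO to control RG-like cells ran from -0.27 to 0.41 with a median of 0.03, against -0.01 over all genes compared. With 10 CPM added these ratios understate changes of low genes. Tekt5 had 26 UMIs in Smo-cKO and 8 in control RG-like cells, a CPM ratio of 3.73 (1.64 to 9.52). Socs1, the nearest measured gene on the same strand and an inhibitor of cytokine signalling, had 5.37 CPM in Smo-cKO and 5.95 in control. Prm2, Prm3 and Tnp2, the sperm chromatin genes beside Prm1, had no row. Nor did other genes of the spermatid programme: 5 of 16 listed had a row, and the 4 besides Prm1 were near 0 in both libraries. Tssk6, a kinase of late spermatids, had 18 UMIs in Smo-cKO and 39 in control. Meig1, which acts in spermatid maturation, had 26 and 54, Spem1 9 and 13, and Oaz3 18 and 9.

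Cells were next sorted into classes by the markers they expressed, with Prm1 playing no part. RG-like cells held 89.1% of all Prm1 UMIs in 27.4% of the Smo-cKO cells. Of 1977 RG-like cells 1692 had at least 1 UMI, 85.6% (84.0 to 87.1), and their level was 612 CPM (600 to 624, exact Poisson interval) or 4.89 UMIs per cell. In 3065 control RG-like cells the count was 0. Multipotent intermediate progenitors (MIPC-like cells, with Egfr, Olig1 and Olig2 among their markers) were few. 27 of 32 had Prm1, 84.4% (67.2 to 94.7), at 313 CPM, and RG-like cells were 1.96-fold higher (1.62 to 2.38).

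Levels dropped steeply in the neuronal lineage. IPC-like cells, marked by Eomes and Neurog2, had Prm1 in 269 of 1386 cells, 19.4% (17.4 to 21.6), at 63.1 CPM. RG-like cells were 9.69-fold higher (8.87 to 10.6). Newborn PyN-like cells had it in 135 of 1554 cells (8.69%) at 25.3 CPM, and PyN-like cells in 74 of 858 (8.62%, 6.83 to 10.7) at 27.1 CPM. These did not differ beyond counting error, with a ratio of 1.07 (0.835 to 1.38). RG-like cells were 22.5-fold (18.6 to 27.6) above PyN-like cells. Inhibitory-like cells, marked by Dlx and Gad genes, had Prm1 in 18 of 266 cells, 6.77% (4.06 to 10.5), at 28.4 CPM. Among the rarest classes it was found in 0 of 15 endothelial-like and 0 of 14 pericyte-like cells, which allows up to 20% and 21.4%, and in 3 of 9 erythroid-like cells. Cells that no class claimed had it in 102 of 918, 11.1%.

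**Figure D1:**
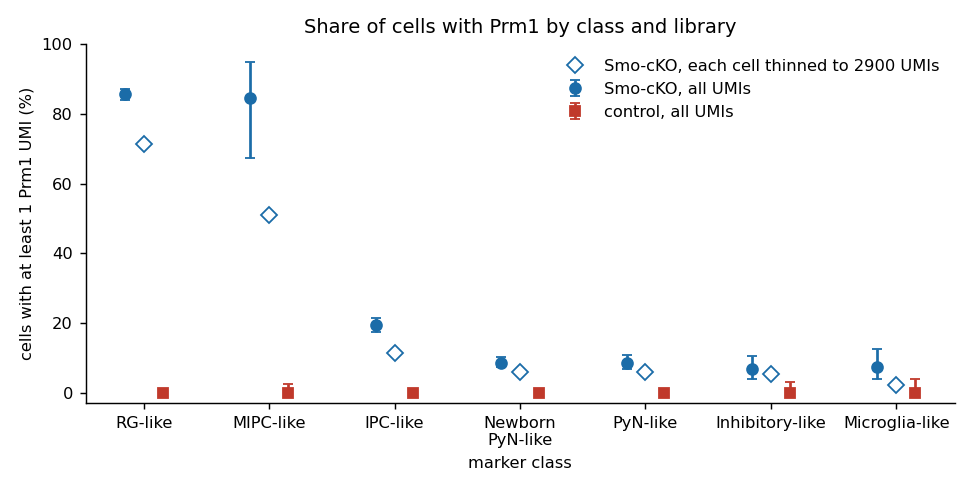
Share of cells with at least 1 Prm1 UMI (y axis, %) by marker class (x axis). Filled circles are Smo-cKO cells, open diamonds the same cells thinned to 2900 UMIs each, red squares control cells, and bars are exact 95% binomial intervals. RG-like (85.6%) and MIPC-like (84.4%) cells stand apart, IPC-like cells follow at 19.4%, the other 4 classes lie between 6.77% and 8.69%, and control is at 0 in each class.

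Microglia-like cells were taken as a reference, since microglia do not descend from radial glia and hGFAP-Cre is not known to be active in them. The origin of their Prm1 counts was not tested. 13 of 173 had Prm1, 7.51% (4.06 to 12.5), at a median depth of 7492 UMIs. The median depths were 7416 UMIs in RG-like, 5418.5 in IPC-like, 4095.5 in newborn PyN-like, 4022.5 in PyN-like and 3052 in inhibitory-like cells. Unthinned, the shares of newborn PyN-like, PyN-like and inhibitory-like cells did not differ from that of microglia-like cells beyond counting error. Microglia-like cells were, however, the deeper ones. In UMIs per cell the ratio to microglia-like cells was 0.814 (0.526 to 1.30) for PyN-like, 0.754 (0.497 to 1.19) for newborn PyN-like and 0.600 (0.330 to 1.09) for inhibitory-like cells. IPC-like cells were above microglia-like cells at 2.48 (1.67 to 3.83). Cells with at least 3 markers of another class were 53.8% of microglia-like cells with Prm1 and 23.1% of those without. Microglia-like cells with 1 or 2 RG markers had Prm1 in 4.84% of 124 cells, and those with 3 or 4 in 12.1% of 33. Whether mixed droplets raised the microglia-like share was not tested.

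On other scales the values of newborn PyN-like, PyN-like and inhibitory-like cells were higher than those of microglia-like cells, though not all by much. Of the 26 microglial UMIs 13 came from 1 cell. Without the highest cell of each class microglia-like cells had 0.0756 UMIs per cell, inhibitory-like cells 0.0792, PyN-like cells 0.106 and newborn PyN-like cells 0.108. On the CPM scale PyN-like cells were 1.87-fold (1.21 to 2.99) above microglia-like cells. After thinning every cell to 2900 UMIs the shares were 71.4% in RG-like, 51.0% in MIPC-like, 11.5% in IPC-like, 6.0% in newborn PyN-like, 5.98% in PyN-like, 5.29% in inhibitory-like and 2.19% in microglia-like cells. Between 0 cells of the MIPC-like class and 172 of the RG-like class were too shallow for this and were left out. Whether neurons held Prm1 of their own was not tested, and no order among these 4 low classes is read from the counts.

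A further measure was the number of UMIs in cells that had any. RG-like cells had a median of 4 UMIs (quartiles 1 and 7, highest 30), and 43.7% of them had 5 or more. Exactly 1 UMI was found in 13.7% of RG-like cells with Prm1, in 64.3% of such IPC-like cells, in 85.2% of newborn PyN-like, 81.1% of PyN-like, 77.8% of inhibitory-like and 84.6% of microglia-like cells. 5 or more UMIs were reached by 19 IPC-like cells (1.37%), 3 newborn PyN-like, 2 PyN-like, 0 inhibitory-like and 1 microglia-like cell. Part of the IPC-like cells thus held amounts seen in radial glia, which the neuronal classes almost never did.

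**Figure D2:**
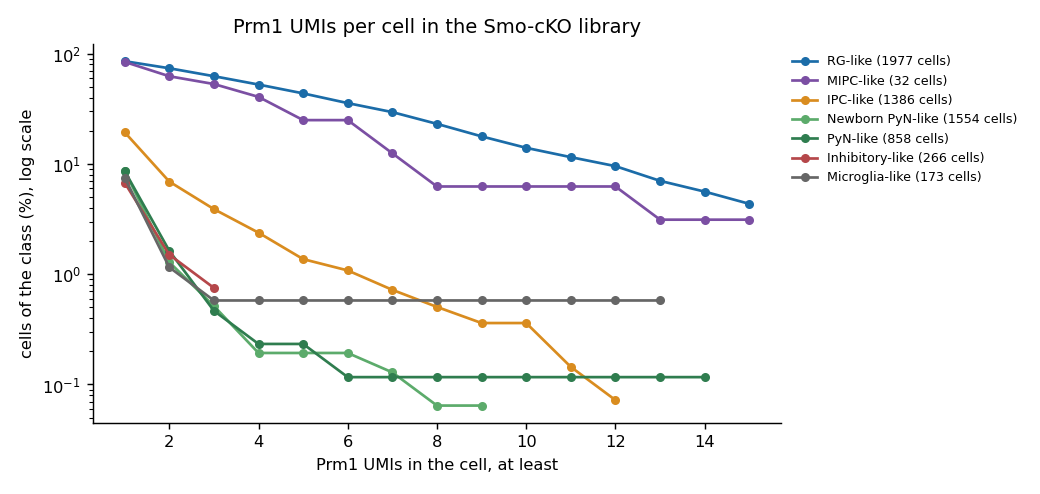
Share of cells of each Smo-cKO class (y axis, %, log scale) with at least the number of Prm1 UMIs on the x axis, drawn up to 15. The RG-like curve drops from 85.6% at 1 UMI to 14.0% at 10, the MIPC-like curve from 84.4% to 6.25% (2 of 32 cells), IPC-like cells lie lower, and in the 4 low classes few cells pass 1 UMI, with 1 microglia-like cell at 13 and 1 PyN-like cell at 14.

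Other transcripts of radial glia were set beside Prm1 as UMIs per cell in a class, in percent of RG-like cells. In IPC-like cells Prm1 stood at 7.61% (6.95 to 8.31). Clu, a secreted chaperone, stood at 5.96%, Aldh1l1, an astroglial folate enzyme, at 5.66%, Fabp7, a fatty acid binding protein of radial glia, at 4.95%, Hopx at 11.8%, Vim, an intermediate filament protein, at 23.5% and Gfap at 25.2%. Sox2 and Pax6, transcription factors that IPCs keep, stood at 47.3% and 62.9%. Prm1 thus lay between Clu and Hopx. In PyN-like cells it stood at 2.50% (2.04 to 3.03), beside 2.41% for Hopx, 1.80% for Fabp7, 1.29% for Vim, 1.27% for Gfap and 1.14% for Aldh1l1. Above it stood Sox2 at 4.57%, Aqp4 at 6.25%, Pax6 at 12.5% and Slc1a2 at 14.4%.

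Prm1 and Fabp7 did not keep a fixed ratio across classes. There were 3.11 Prm1 UMIs (3.04 to 3.17) for each 100 of Fabp7 in RG-like cells, 4.78 (4.36 to 5.22) in IPC-like, 3.75 (3.21 to 4.36) in newborn PyN-like, 4.32 (3.52 to 5.25) in PyN-like, 6.95 (4.48 to 10.3) in microglia-like and 12.8 (8.02 to 19.7) in inhibitory-like cells. The last value rests on 24 Prm1 UMIs. MIPC-like cells had 11.6 (9.45 to 14.1), on 111 Prm1 UMIs. The part of free RNA in these counts was not tested.

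The genes whose levels followed Prm1 most closely were named by Pearson's r of log2(CPM + 1) over the 6 Smo-cKO classes with at least 50 cells. They were P4ha3, a collagen prolyl hydroxylase, and Hes5, a Notch target, both at r = 0.996, followed by Igfbp7, Daam2, Yap1, Mt3, Rhod, Prrx2, Hepacam and Clu (r = 0.988). Hes5 and Mt3 are among the markers that set the RG-like class. The 6 points come from 1 library, and a high r here says that a gene is high in RG-like cells.

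Within RG-like cells the share and the UMIs per cell of Prm1 did not follow the cell cycle, whereas its CPM differed. Cycling cells (at least 2 of 7 markers such as Mki67 and Top2a) had it in 86.0% of 684 cells and the others in 85.4% of 1293. The former had 4.93 UMIs per cell and the latter 4.88, a ratio of 1.01 (0.969 to 1.05). Cycling cells were deeper (median 9227.5 against 6820 UMIs), and their CPM was lower, 508 against 687, a ratio of 0.739 (0.709 to 0.771).

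Prm1 followed Gfap, the glial filament gene, cell by cell. RG-like cells with 0 Gfap UMIs had Prm1 in 80.9% of 1259 cells at 548 CPM. With 1 Gfap UMI the values were 90.5% and 612 CPM, with 2 to 4 UMIs 96.7% and 759 CPM, and with 5 or more 98.7% of 77 cells and 872 CPM. Depth rose along the same steps, from a median of 6774 to 9715 UMIs, and the shares after thinning were 67.4%, 74.1%, 80.4% and 85.3%. In IPC-like cells the steps were steeper for the level, with 49.8, 106 and 162 CPM at 0, 1 and 2 to 4 Gfap UMIs, and shares of 16.4%, 33.3% and 51.9%.

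The number of RG markers in a cell gave a like gradient. RG-like cells with 3 or 4 of the 12 markers had Prm1 in 27.5% of 69 cells, at a median depth of 1818 UMIs, and those with 9 or more in 91.4% of 1470, at 7986.5 UMIs. IPC-like cells with no RG marker had it in 9.84% of 122 cells, those with 5 or 6 in 36.5% of 200 and those with 7 or 8 in 52.3% of 86. Their thinned shares were 6.94%, 20.3% and 30.3%. Thinned microglia-like cells stood at 2.19%, below the IPC-like cells without an RG marker. By Eomes the share was 22.0% at 0 UMIs and 19.5% at 5 or more, at median depths of 4567 and 6373 UMIs. The thinned shares were 12.9% at 0, 13.6% at 1, 11.9% at 2 to 4 and 9.94% at 5 or more. The level was 75.1 CPM at 0, 72.2 (62.7 to 82.8) at 2 to 4 and 50.7 (43.6 to 58.7) at 5 or more. By Neurod1, which marks the step towards the neuron, the share was 21.9% at 0, 15.2% at 1 and 10.4% at 2 to 4 UMIs. With 5 or more it was 11.9% of 42 cells. The thinned shares along these steps were 13.2%, 8.46%, 5.40% and 7.66%.

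**Figure D3:**
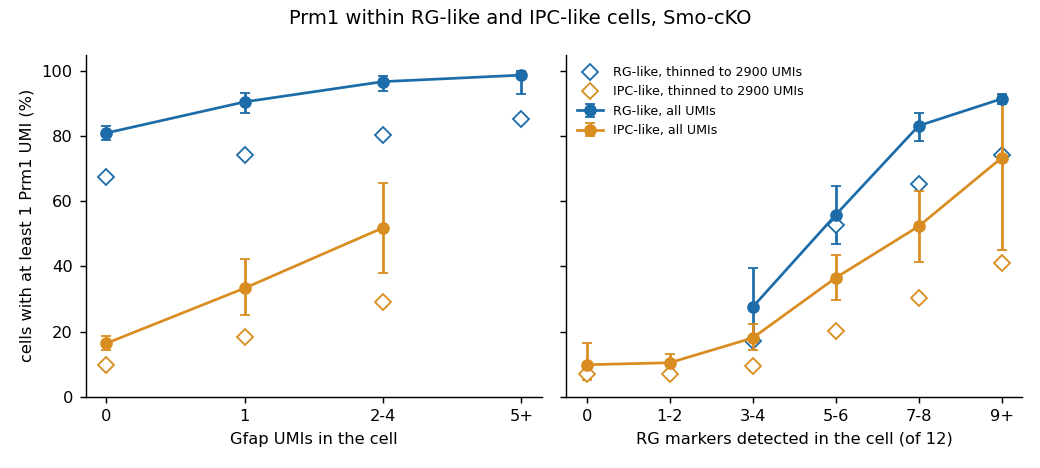
Share of Smo-cKO cells with at least 1 Prm1 UMI (y axis, %) by Gfap UMIs in the cell (left) and by the number of RG markers detected (right), for RG-like and IPC-like cells. Circles with exact 95% binomial intervals use all UMIs and open diamonds cells thinned to 2900 UMIs, and in both classes the share is higher with each step in Gfap.

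RG-like cells that expressed genes of glial progenitors had less Prm1. With an Egfr UMI the level was 211 CPM (182 to 242) in 77 cells, against 637 (624 to 650) without, and the thinned share 40.4% against 72.7%. With Olig2 the level was 286 CPM in 92 cells against 636, and the thinned share 50.7% against 72.4%. Cells with these genes were deeper, with medians of 11339 (Egfr) and 11322.5 UMIs (Olig2) against 7352 and 7329 without. Prm1 UMIs per cell were 2.55 against 4.99 by Egfr and 3.45 against 4.96 by Olig2. With Dlx2, a factor of subpallial progenitors, 10 of 17 cells had Prm1 at 219 CPM, against 616 CPM in the rest. Cells with Hopx, a marker of outer radial glia, had 640 CPM against 414 without, cells with Id3, a BMP target, 688 against 483, and cells with Cdkn1a 714 against 583. By Emx1, a pallial factor, levels were close, 629 and 600 CPM.

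The shares moved with depth. Across 5 bins of RG-like cells of nearly equal size, ordered by total UMIs, Prm1 was found in 64.4%, 87.9%, 90.9%, 90.6% and 94.2% of cells, whereas the level was 755, 765, 735, 609 and 447 CPM. In the shallowest bin, with a median of 3494 UMIs, a cell without a UMI can therefore not be called a cell without the transcript. Of the 1977 RG-like cells, the 285 without Prm1 had a median of 5409 UMIs and the 1692 with it 7675.5, and they had medians of 8 and 10 RG markers.

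Prm1 had been proposed as a trace of the cells that Cre had reached and of their descendants, so Smo was compared between cells with and without it. In the RG-like class Smo was found in 241 of 3065 control cells, a share of 7.86% (6.93 to 8.87). In Smo-cKO it was found in 3 of 285 cells without Prm1, 1.05% (0.218 to 3.04), and in 3 of 1692 with it, 0.177% (0.0366 to 0.517). In the IPC-like class the control share was 2.94% (2.33 to 3.65), from 78 of 2656 cells. Among Smo-cKO cells it was 0.179% (0.0217 to 0.645) without Prm1, from 2 of 1117 cells, and 1 of 269 cells with Prm1 had Smo. Among newborn PyN-like cells the control share was 1.59% (1.11 to 2.20), from 35 of 2208 cells, and 1 of 1419 without Prm1 had Smo in the Smo-cKO library, 0.0705% (0.00178 to 0.392). PyN-like cells had it in 7 of 825 and 1 of 784 cells, where the intervals overlapped. In RG-like cells Smo was thus higher without Prm1 than with it, by 0.875 percentage points (0.101 to 2.87) and with a CPM ratio of cells with Prm1 to cells without of 0.114 (0.0153 to 0.852), on 3 UMIs each. In the RG-like, IPC-like and newborn PyN-like classes the Smo-cKO cells in which no Prm1 was counted were nevertheless below control. Whether Prm1 marks the cells that Cre had reached was not tested. In inhibitory-like cells Smo was found in 0 of 117 control and 0 of 266 Smo-cKO cells, which allows shares of up to 2.56% and 1.13%, so no such comparison was possible at this depth.

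**Figure D4:**
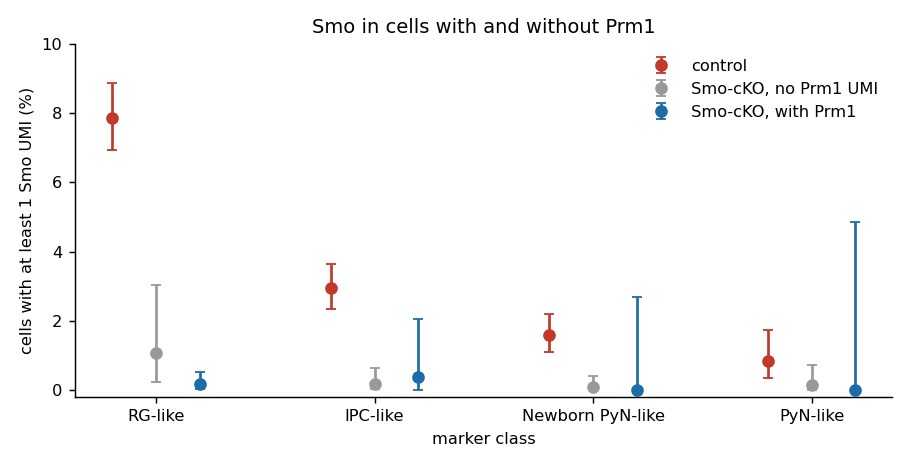
Share of cells with at least 1 Smo UMI (y axis, %) in 4 marker classes (x axis), for control cells, Smo-cKO cells without a Prm1 UMI and Smo-cKO cells with one, with exact 95% binomial intervals. In RG-like, IPC-like and newborn PyN-like cells the Smo-cKO cells without Prm1 lie below the control cells.

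Ptch1, the SHH receptor and a target of the pathway, did differ between RG-like cells with and without Prm1. It was found in 375 of 3065 control RG-like cells (12.2%) and in 24 of 1977 Smo-cKO ones (1.21%). Of the latter, 15 were among the 285 cells without Prm1, 5.26% (2.98 to 8.53), and 9 among the 1692 with it, 0.532% (0.244 to 1.01), a difference of 4.73 percentage points (2.63 to 7.98, Newcombe interval). The CPM ratio of cells with Prm1 to cells without was 0.144 (0.0757 to 0.278). Between 285 cells of each kind matched on total UMIs the difference was 4.91 points. Seen from the other side, 37.5% of the 24 cells with Ptch1 had Prm1 (18.8 to 59.4), against 86.2% of the other 1953. 6 of these 24 cells had Olig2, 3 had Gsx2, 3 had Emx1 and 11 had Emx2, and their median depth was 9721.5 UMIs. Of the other 1953 cells 86 had Olig2, 20 had Gsx2, 697 had Emx1 and 879 had Emx2, at a median depth of 7386 UMIs. In inhibitory-like cells Ptch1 was found in 7.69% of control and 8.65% of Smo-cKO cells, at similar shares with Prm1 (2 of 18) and without (21 of 248, 8.47%).

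Smo and Ptch1 had too few UMIs for the comparison across all genes. In RG-like cells 6 of the 11 listed SHH pathway genes had the 50 UMIs needed for it, and of these 0 were higher and 0 lower by 1.5-fold, with a median log2 ratio of 0.09. The background was 0.769% of 10787 genes higher and 0.955% lower, with a median of -0.00. Gli3, the main repressor of the pathway, had 99.9 CPM with Prm1 and 90.1 without (ratio 1.11, 0.934 to 1.32). Gas1, a co-receptor, had 196 and 249 CPM.

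Cells of the RG-like class with Prm1 were more astroglial in their transcripts. Of 12 listed astroglial gene names 9 could be compared, 5 were higher and 0 lower, with a median log2 ratio of 0.60. Without cells that had 3 or more markers of another class 3 were higher and 1 lower, with a median of 0.36, and with depth matched 5 were higher and 1 lower. The 5 were Gfap (110 against 39.5 CPM, ratio 2.80, 2.18 to 3.65), Id3 (523 against 228), 1500015O10Rik, also called Ecrg4 (268 against 143), Clu (583 against 354) and Apoe, a lipid carrier (1934 against 1273). Aldh1l1, Aqp4 and Slc1a2 had ratios of 1.23, 1.22 and 0.924. Gja1, the astroglial gap junction protein connexin 43, went the other way at 0.664 (0.520 to 0.857). Cell cycle genes were even, with 0 higher and 0 lower of 10 and a median of 0.10.

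Cells without Prm1 had more transcripts of neurons. Of 9 neuron maturation genes compared, 0 were higher with Prm1 and 5 lower, with a median log2 ratio of -0.59. Mapt, the microtubule protein tau, had 19.8 CPM with Prm1 and 42.0 without, Tubb3, a neuronal tubulin, 85.6 and 154, and Stmn2 20.6 and 38.3. Of 7 pallial genes 1 was lower, Neurog2, which drives neuronal commitment, at 52.3 and 87.0 CPM. Emx1 and Emx2 had ratios of 1.06 and 1.17. Of 3 genes of medial, 1 of caudal and 8 of lateral ganglionic eminence lineages that could be compared, 0 passed the fold in either direction. 3 genes of subpallial progenitors had too few UMIs for that comparison but were lower with Prm1 beyond counting error, on 7 to 15 cells with a UMI in each set. Dlx2 had 1.13 CPM with Prm1 and 14.2 without (ratio 0.0794, 0.0392 to 0.157), Dlx1 1.55 and 10.5 (0.148, 0.0749 to 0.296) and Gsx2 2.25 and 8.64 (0.261, 0.135 to 0.529).

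**Figure D5:**
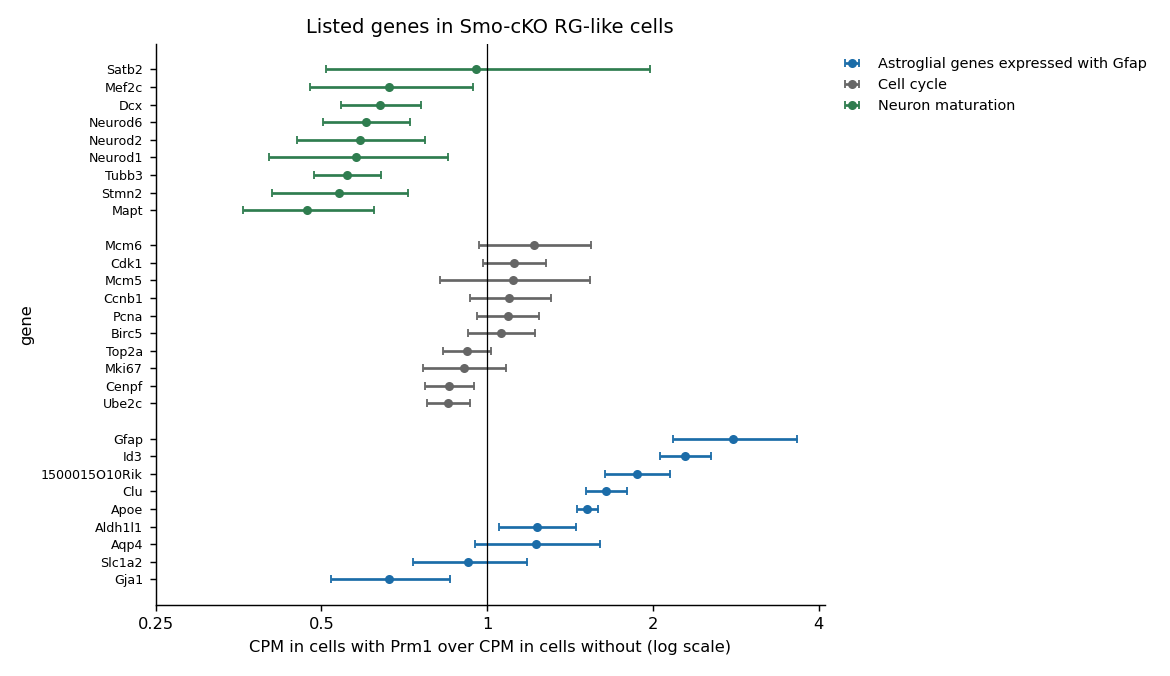
Ratio of CPM in Smo-cKO RG-like cells with Prm1 to those without (x axis, log scale) for genes of 3 lists (y axis), with exact 95% intervals from counts. 5 astroglial genes stand between 1.52 and 2.80, the 10 cell cycle genes lie around 1, and 8 of 9 neuron maturation genes have intervals below 1.

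Over all 10787 genes, those highest with Prm1 in RG-like cells were Pbld2, Gfap, Dqx1, Acta2, Id3, Fos, Slc14a2, Hopx, Cav2 and Pola2, at log2 ratios of 1.00 to 1.29. Hopx had 1012 CPM with Prm1 and 473.5 without and was found in 87.9% and 60.0% of cells. Fos, an immediate early gene, had 227 and 99.4 CPM, and Slc14a2, a urea transporter, 102.5 and 42.0. A single cell held 214 of 243 Dqx1 UMIs and another 157 of 654 Pbld2 UMIs, so those 2 names rest on few cells. The lowest was Sparcl1, a matricellular protein of maturing astrocytes and neurons, with 7.39 CPM with Prm1 and 92.6 without (ratio 0.0799, 0.0616 to 0.103). It was found in 40 of 1692 and 27 of 285 cells. Nptx2, Lhfpl4, Rnd3, Sez6, Dpysl4, Pam, Lxn and Egr1 were also among the 10 lowest, at log2 ratios of -1.26 to -0.93. Rnd3, a GTPase of migrating neurons, had 30.6 and 74.7 CPM.

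IPC-like cells with Prm1 resembled radial glia more than those without. The 269 cells with it had a median of 6553 UMIs and 4 RG markers, the 1117 without 5194 UMIs and 2 markers. Of 9112 genes, 1.83% were higher and 1.61% lower. Among the highest were Thrsp (210 against 60.0 CPM), Phgdh, the first enzyme of serine synthesis (234 against 72.4), Htra1 (89.9 against 25.4), C1ql1 (29.1 against 5.12), Ddah1 (278 against 100.3), Hopx (297 against 109), and the metallothioneins Mt1 (828 against 303) and Mt3 (1132 against 382). Aldoc, a glycolytic enzyme of astroglia, had 222 and 73.4 CPM. Gm26737 led the order, but 4 cells held its 87 UMIs. Without cells that had 3 or more markers of another class, the log2 ratio of Mt3 went from 1.54 to 0.09, that of Mt1 from 1.42 to 0.52 and that of Gm26737 from 2.38 to 0.45.

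The lists differed the same way in IPC-like cells, of which 83.6% with Prm1 and 68.5% without had at least 3 markers of another class. Of 9 astroglial genes 5 were higher and 0 lower, with a median log2 ratio of 0.81 against -0.01 over all genes, and Gfap stood at 63.9 against 26.4 CPM and Clu at 89.4 against 31.7. Of 10 neuron maturation genes 0 were higher and 4 lower (Neurod1, Neurod6, Dcx and Tubb3), with Neurod1 at 52.5 against 124 CPM and Neurod6 at 306 against 551. Of the 6 SHH genes compared 2 were higher, the co-receptors Gas1 (173 against 74.0 CPM) and Cdon (76.4 against 46.1). Of 7 pallial genes 0 differed by the fold. Cell cycle genes appeared higher with Prm1 (6 of 10, median 0.62), yet between 269 cells of each kind matched on depth 1 of 10 was higher and the median was -0.04. Without cells that had 3 or more markers of another class, only 44 cells with Prm1 and 352 without remained. There 6 of 6 compared were higher, with a median of 1.66 against -0.05 over all genes compared. The share of all genes past the fold in these small sets is not given here, so this count has no background beside it. Prm1 itself was found in 34.5% of 119 cycling and 18.0% of 1267 other IPC-like cells, at 66.1 and 62.7 CPM.

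Cells without Prm1 were marked in the IPC-like class by Ulk4 (23.4 CPM with Prm1 and 83.1 without), Cxcl12, a chemokine (11.4 and 36.8), Neurod1, Chga (18.7 and 51.3) and Gfod2. S100a9, S100a8, BC100530 and Wfdc17 were also among the lowest. The same cell, of 8158 UMIs, held 332 of the 334 S100a9 UMIs, 253 of 253 of S100a8, 213 of 215 of BC100530 and 95 of 95 of Wfdc17. S100a8 and S100a9 are genes of neutrophils, so these values rest on 1 cell that the markers placed in the IPC-like class.

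Some PyN-like cells with Prm1 held transcripts that were rare in the class. 74 cells were compared with 784, with a background of 3.46% higher and 4.01% lower of 7130 genes. The highest were 2810417H13Rik, Hopx, Aldoc, Apoe, Vim, Hist1h2ae, Hist1h2ap, Id3, Mt1 and Tnc. Hopx was found in 16 of 74 and 75 of 784 cells, at 165 and 25.8 CPM, and 1 cell held 25 of its 69 UMIs in the former. Apoe was found in 17 and 121 cells, and 1 cell held 59 of 101 UMIs. The others rest on few cells too. 2810417H13Rik was found in 4, Hist1h2ap in 6 and Hist1h2ae in 7 of the 74 cells, and 1 cell held 12 of 22 Id3 UMIs and 1 held 13 of 21 Tnc UMIs. Neuron maturation genes did not differ by the fold in 9 of 9 genes, with a median of 0.02. Cells with at least 3 markers of another class made up 45.9% of PyN-like cells with Prm1 and 35.1% of those without, and whether droplets with 2 cells contributed was not tested.

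In the inhibitory-like class 18 cells had Prm1 and 248 did not, and the background of 9.55% higher and 16.9% lower of 2785 genes shows how much small numbers scatter. Vim (8 of 18 and 20 of 248 cells), Dbi, Mdk, Gng5, Ptn and Insm1 were among the highest. With Prm1, a single cell held 25 of 38 Vim, 27 of 43 Ptn and 9 of 16 Insm1 UMIs. Without the top cell of each set the log2 ratio of Ptn went from 1.74 to 0.53 and that of Insm1 from 1.80 to 0.92. Vim was then at 1.98, Dbi at 2.62, Mdk at 2.21 and Gng5 at 1.48. Of 7 genes of medial ganglionic eminence interneurons 4 were lower and 0 higher. Lhx6, the factor of that lineage, had 3 UMIs with Prm1 and 164 without (38.7 and 214 CPM, ratio 0.181, 0.0370 to 0.539). Of 5 genes of caudal ganglionic eminence interneurons 2 were lower and 0 higher, and Npas1 had 3 and 195 UMIs. Of 5 genes of lateral ganglionic eminence and olfactory bulb cells 2 were higher and 2 lower, with a median log2 ratio of -0.40. Meis2 was found in 38.9% of cells with Prm1 and 9.68% without, and Sp8 in 44.4% and 26.6%, whereas Pbx3 had 0 UMIs with Prm1 and 77 without and Tshz1 5 and 159. Dlx1 and Dlx2, which mark the whole inhibitory lineage, had ratios of 1.01 and 0.940. Cells with 3 or more markers of another class were 38.9% of those with Prm1 and 7.26% of those without. In MIPC-like cells 27 cells were set against 5, and 14% of 1079 genes were higher and 10.3% lower, too many at this depth for single genes to be named.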

How the data were processed

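Droplet-based 10x Genomics libraries were made from sorted cells, 1 per mouse genotype. The authors deposited raw UMI counts per gene and cell as 1 mouse table, made with Cell Ranger on mm10 per the submitters' processing notes and the study's methods. The table does not name a genotype per cell. Barcode suffixes were assigned because their numbers of barcodes equal the cell numbers the study states, so the stated filter (750 to 5000 genes, under 10% mitochondrial UMIs), applied here, leaves fewer cells than stated. A ferret table without a PRM1 row was not used.

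A cell took the class with the largest share of its markers detected, with at least 3 markers, and ties stayed unnamed (918 Smo-cKO cells). Doublets were not called or removed. How doublets were treated before deposit is not given in the sources used here. CPM is UMIs of a gene per 1000000 UMIs of the cells summed. Cells of 1 library are not replicates, so no p-value is given. Intervals are exact binomial (Clopper-Pearson), exact Poisson, exact conditional for ratios, or Newcombe for differences of shares, at 95%. To compare depths, each cell was thinned to 2900 UMIs through the expected share. Log2 ratios add 10 CPM, which understates changes of low genes, and need 50 UMIs in both sets together. A fold of 1.5 on that scale counted as higher or lower.

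Named genes were Prm1, the listed genes, the 10 highest and 10 lowest between cells with and without Prm1 in a class, the 10 most like Prm1 and the genes within 500 kb. Some genes that these rules name are not reported here. Prm1, the lists and markers were chosen with earlier results of these data known. Values were computed with scipy 1.17.1 on numpy 2.4.6 and pandas 2.3.3 (python 3.11.15), and plots drawn with matplotlib 3.10.9. The calculation for 2 sets of cells was run on simulated Poisson sums. These had no scatter between cells, so they cannot check the intervals of transcripts held by few cells. Alternatives were all deposited cells, 2 UMIs, thinning, 5 markers, cells of 2 classes left out, classes from marker UMIs, another total and depth matching.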

Additional observations from a re-analysis of the deposited data

Results flagged for a closer look

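Prm1 was also present in Smo-cKO barcodes that the limits on genes and mitochondrial share left out and that no comparison above uses. 81 of these 387 barcodes had at least 1 Prm1 UMI, against 0 of the 26 left out in control. Their median depth was 940 UMIs, and 354 of them had fewer than 750 genes.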

How the results depend on the processing

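No paired analysis was possible because the labels of the mouse libraries give no replicate numbers and each genotype is 1 library. The control share stayed at 0 in all deposited cells, with 2 UMIs and after thinning. The RG-like share of 85.6% became 82.6% in all deposited cells, 73.8% with 2 UMIs and 71.4% after thinning. The PyN-like share of 8.62% became 1.63% with 2 UMIs, 5.98% after thinning, 10.9% with 5 markers and 10.8% with classes from summed marker UMIs. The inhibitory-like share of 6.77% became 1.5% with 2 UMIs and 11.4% with classes from summed marker UMIs. RG-like CPM became 764 without mitochondrial, haemoglobin and ribosomal protein genes in the total, 713 without cells of 2 classes and 662 with classes from summed marker UMIs, which took the ratio to PyN-like cells to 17.2. Alternatives for cells with and without Prm1 were added after seeing the data, other than those for Smo in inhibitory-like cells. There the difference was 0 in all 4 because none of the cells compared had a Smo UMI, so these alternatives check nothing. In RG-like cells the neuron maturation median became -1.49 without cells of 2 classes and the cell cycle median -0.18 with depth matched. In IPC-like cells positive from 2 UMIs the astroglial median was 1.09, the neuron maturation median -0.85 and the cell cycle median -0.17, and with depth matched the last was -0.040. Without cells of 2 classes the latter lists gave -0.70 and 1.66, on 44 cells with Prm1 and 352 without. The cause was not tested. The 40 named genes of these classes were picked as the highest and lowest of the same comparison, on cells that the alternatives share. Their stability is therefore no independent check. The genes kept their direction or were at 0. All 20 of the RG-like and all 20 of the IPC-like class stayed past 1.5-fold with depth matched. Without cells of 2 classes 19 and 12 did so. The RG-like astroglial median was then 0.36. The SHH list could not be computed in inhibitory-like cells, where no listed gene reached 50 UMIs. At these depths a single cell without a Prm1 UMI cannot be called free of it.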
